A study of Homo sapiens with 16 samples.

Results

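The genes described here encode 10 readers of histone H3 lysine 36 (H3K36) methylation: DNMT3A, DNMT3B, PSIP1, ZMYND11, MORF4L1, BRPF1, PHF1, PHF19, MTF2 and GLYR1. They were listed by name, as proteins with a domain that binds the methylated lysine. The rule used no measured value, although the list was drawn up with earlier results of these data known. They make up 10 of the 58735 genes of the deposited table, and all 10 passed the filter for testing, a mean over libraries of 1 FPKM (fragments per kilobase of exon, scaled to library depth) or more, as did 13088 genes in all.

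RNA came from U2OS, an established human osteosarcoma cell line, and all groups shared this line and an siRNA transfection 48 h before collection. The siRNA was either a non-targeting control (siNT) or one that targets SETD2 (siSETD2), whose product trimethylates H3K36. Within each siRNA, cells were left untreated or were exposed for 4 h to 2 mM hydroxyurea (HU), which starves replication forks of nucleotides, to 2 µM VE-822, an inhibitor of the checkpoint kinase ATR, or to both agents. Each of the 8 groups had 2 libraries, numbered R1 and R2, for 16 in all. The labels do not state whether these were independent cultures, and p-values therefore measure library-to-library spread that may be technical. Only RNA was measured, so neither H3K36 methylation nor the proteins are in these data.

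H3K36 methylation is laid down over the bodies of transcribed genes, where trimethylation by SETD2 follows the elongating polymerase. Readers hold the modified lysine in an aromatic cage of a PWWP, chromo or Tudor domain and carry an activity to it. The PWWP domains of DNMT3A and DNMT3B direct new DNA methylation to such chromatin, and PHF1, MTF2 and PHF19 link it through a Tudor domain to Polycomb repressive complex 2 (PRC2). PSIP1 (LEDGF), BRPF1, ZMYND11 and GLYR1 are further PWWP proteins, and MORF4L1 (MRG15) uses a chromodomain.

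The promoter sequences of 3 members on which the results turn are given as a guide to the loci. They come from RefSeq on GRCh38.p14 and run from 250 bases before to 50 bases after an annotated start site, 5′ to 3′ on the gene's strand. PHF19 and MTF2 are shown because they went in opposite directions in VE-822, and DNMT3A because it carried the clearest difference with siSETD2. Capitals mark an E2F-type motif, searched on both strands as TTTCCCGC, TTTCGCGC, TTTGCCGC and TTTGGCGC, with no other motif searched. E2F factors control genes of the G1/S transition of the cell cycle. The PHF19 window is chr9:120877139-120877438 on the minus strand, the MTF2 window chr1:93079033-93079332 on the plus strand and the DNMT3A window chr2:25342541-25342840 on the minus strand.
PHF19: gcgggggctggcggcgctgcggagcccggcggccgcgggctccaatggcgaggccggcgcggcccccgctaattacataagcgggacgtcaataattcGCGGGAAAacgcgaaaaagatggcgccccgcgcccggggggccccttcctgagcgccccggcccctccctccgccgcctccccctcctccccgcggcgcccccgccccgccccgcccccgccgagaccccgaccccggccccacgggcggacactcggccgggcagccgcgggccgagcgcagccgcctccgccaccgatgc
MTF2: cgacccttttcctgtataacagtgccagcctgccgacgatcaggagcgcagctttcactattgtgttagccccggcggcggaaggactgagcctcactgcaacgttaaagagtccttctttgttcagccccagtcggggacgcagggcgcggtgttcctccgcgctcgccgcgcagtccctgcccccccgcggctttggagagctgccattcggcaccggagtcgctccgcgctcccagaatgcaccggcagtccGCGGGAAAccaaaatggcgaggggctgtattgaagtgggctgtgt
DNMT3A: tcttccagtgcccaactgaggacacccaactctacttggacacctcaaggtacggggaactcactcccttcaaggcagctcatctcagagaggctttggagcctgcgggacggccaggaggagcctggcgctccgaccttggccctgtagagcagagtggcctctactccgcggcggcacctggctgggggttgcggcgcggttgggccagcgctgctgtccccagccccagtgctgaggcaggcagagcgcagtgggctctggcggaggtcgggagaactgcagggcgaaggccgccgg

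PHF19 and MTF2 each held 1 match, GCGGGAAA in both, beginning 152 bases before the PHF19 start site and 5 bases after that of MTF2. All 10 members matched the table by symbol, with 25 windows among them, and the other 8 members had no match in their windows. The only DNMT3B window lay at an internal start site, chr20:32779852, while the gene begins at 32762385, so the sequence at that beginning was not searched. The same holds for MORF4L1 (start site 78872890, gene start 78810487) and PHF1 (33411014 and 33410399). It also holds for PHF19, with start sites at 120868911 and 120877188 and a beginning, on the minus strand, at 120894896. Of all 35116 windows of this length, 1164 (3.31%) held a match, as did 3.99% of genes with a window. A match of 8 letters is a description of the sequence only.

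On GRCh38 (GENCODE 29), DNMT3A (ENSG00000119772) lies at chr2:25227855-25342590 on the minus strand and DNMT3B (ENSG00000088305) at chr20:32762385-32809356 on the plus strand. PHF19 (ENSG00000119403) lies at chr9:120855652-120894896 on the minus strand, and its promoter window shown above starts inside this span. MTF2 (ENSG00000143033) lies at chr1:93079235-93139081 and ZMYND11 (ENSG00000015171) at chr10:134465-254637, both on the plus strand. FPKM values count fragments over the merged exons of each gene.

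The members covered a wide range of levels. By mean FPKM over the 16 libraries, MORF4L1 stood highest at 27.4, followed by PHF1 at 23.1 and GLYR1 at 18.6. FPKM is scaled to the merged exon length and compares genes only approximately. DNMT3B (11.7), PHF19 (10.1), BRPF1 (9.78), PSIP1 (9.21) and MTF2 (6.42) lay in the middle. DNMT3A at 3.22 and ZMYND11 at 2.03 FPKM were the lowest. Neighbours in this order overlapped in their range over libraries, apart from MTF2 and DNMT3A: the lowest MTF2 library held 4.96 FPKM and the highest DNMT3A library 4.30. DNMT3A exceeded ZMYND11 within each of the 16 libraries. DNMT3B encodes the methyltransferase that prefers trimethylated H3K36 in gene bodies. By FPKM its transcript was the higher of the pair of de novo enzymes, and that of PHF1 the highest of the Polycomb-like proteins. The merged exons were 12020 bases for DNMT3A and 4630 for DNMT3B, and protein levels were not measured.

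**Figure D1:**
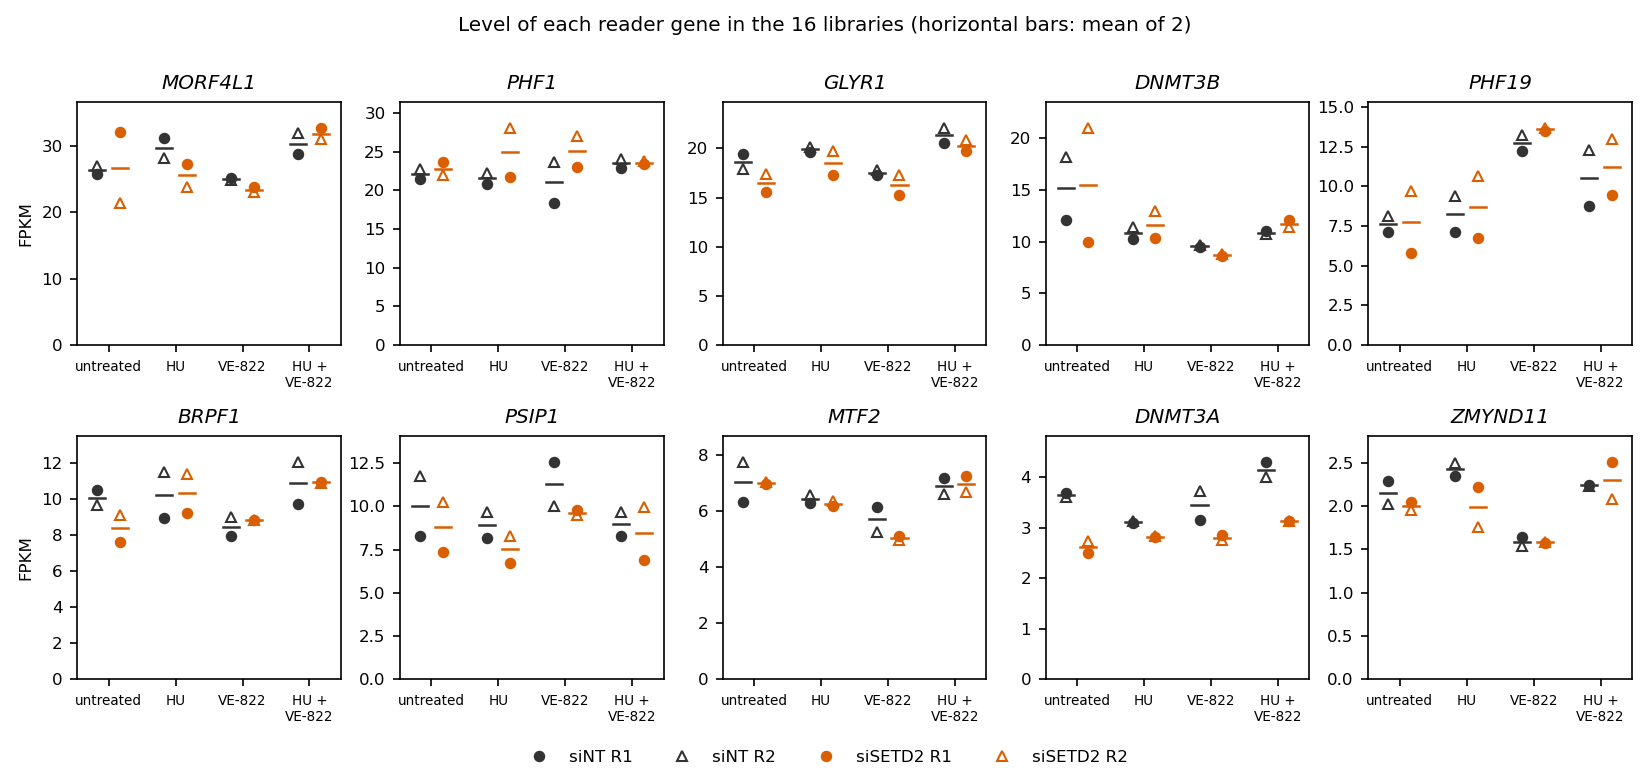
FPKM of each reader gene (vertical axes from 0) in untreated, HU, VE-822 and HU + VE-822 cells, with siNT in black and siSETD2 in orange, R1 as filled circles, R2 as open triangles and a bar at the mean of 2 libraries. DNMT3A is lower in siSETD2 than in siNT in each treatment, and the VE-822 libraries are highest or near highest for PHF19 and lowest for MTF2, DNMT3B and ZMYND11.

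The members' transcripts were well covered, with 208 fragments in the least covered library (ZMYND11) and 5577 in the best covered (MORF4L1), from 22310806 to 31101932 fragments per library in all. Reads of MORF4L1 may be shared with its processed pseudogene MORF4L1P1, which was listed at 5.97 to 11.4 FPKM, so the MORF4L1 values are uncertain. Exons of PSIP1, GLYR1 and PHF1 overlap a gene on the other strand (SNAPC3, UBN1 and CUTA) over 140, 115 and 12 bases, 2.07%, 2.10% and 0.334% of their exon length. SETD2, the target of the siRNA, had 7.34 to 9.25 FPKM in siNT and 2.01 to 4.62 FPKM in siSETD2 libraries (log2 difference -1.09, SE 0.13, adjusted p = 0.0169). Of the cell type markers, 5 of 6 mesenchymal genes (summed 249 to 438 FPKM) reached a mean of 1 FPKM, with COL1A2 at 0 to 0.0414. Of 6 epithelial genes 3 did (summed 52.4 to 117 FPKM, with CDH1, KRT19 and ESRP1 near 0), and of 6 blood genes 0 did (summed 0.127 to 0.432 FPKM). The 4 libraries in VE-822 alone stood apart on the first principal component (46.1% of variance), with scores of 29.5 to 35.3, while scores of the remaining libraries were 0.86 to 7.23 for R2 and -33.3 to -20.5 for R1.

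The first question was whether depletion of SETD2 was accompanied by a different transcript level of the genes whose proteins bind methylated H3K36. DNMT3A was lower with siSETD2 in every treatment, and no other reader separated the siRNAs in this way. Untreated cells had 3.69 and 3.61 FPKM of DNMT3A with siNT and 2.51 and 2.74 FPKM with siSETD2 (R1 and R2). In HU the values were 3.10 and 3.13 FPKM against 2.81 and 2.84 FPKM. In both treatments each siSETD2 library lay below both siNT libraries. VE-822 gave 3.16 and 3.72 FPKM with siNT and 2.85 and 2.76 FPKM with siSETD2. HU with VE-822 gave 4.30 and 4.00 FPKM against 3.14 and 3.13 FPKM. The groups did not overlap within any treatment, and the siSETD2 mean was 71.8%, 90.7%, 81.5% and 75.5% of the siNT mean in untreated, HU, VE-822 and combined treatment.

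Averaged over the 4 treatments, DNMT3A differed by -0.25 on the log2(FPKM + 1) scale (SE 0.05, 95% interval -0.36 to -0.14). Its adjusted p in limma was 0.0762, with an unadjusted p of 0.000312, and it did not pass the threshold of 0.05 over all genes. R1 and R2 of 6 groups deviated together across genes, and with a term for this number (the replicate block) the same difference passed, with an adjusted p of 0.0143. The block was inferred from these data, and DNMT3A itself had no such gap, with a mean R2 minus R1 of -0.00025 in the 6 groups. Without the 4 VE-822-alone libraries and with a block the siRNA difference was -0.26, with an adjusted p of 0.0684. The difference was -0.25 within R1 and -0.25 within R2. SETD2 itself was at 2.01 to 2.64 FPKM in the R1 and 3.67 to 4.17 FPKM in the R2 siSETD2 libraries (VE-822 alone aside), while DNMT3A was at 2.51 to 3.14 FPKM in the former and 2.74 to 3.13 FPKM in the latter. The DNMT3A levels of R1 and R2 overlapped although the SETD2 levels did not.

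These results stand against a low background. The average contrast called 17 genes, 0.13% of those tested, and 0 of the 10 readers by limma or voom, with 1309 genes and 1 reader at an unadjusted p under 0.05. With the replicate block it called 3.88% of genes and 1 of 10 readers, DNMT3A. In the same blocked fit 2 of 5 mesenchymal markers tested fell, FN1, which fell by 0.54 (adjusted p = 0.0124), and SPARC, which fell by 0.38 (adjusted p = 0.014), and 0 of 3 epithelial markers passed. The summed mesenchymal markers were at 275 to 438 FPKM in siNT and 249 to 383 FPKM in siSETD2 libraries. Their part in the DNMT3A result was not tested. A full separation below siNT in all 4 treatments was found for 162 genes, 1.24% of those tested, and for 1 of the 10 readers. Of the members, 7 were lower and 3 higher with siSETD2, with a median log2 difference of -0.05 beside -0.01 over all genes tested. In bulk RNA, less transcript in each cell and fewer cells with the transcript cannot be told apart.

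The other de novo methyltransferase, DNMT3B, showed no such difference. It had 12.1 and 18.2 FPKM in untreated siNT cells and 10.0 and 21.0 FPKM in untreated siSETD2 cells, so the 2 libraries of a group lay further apart than the siRNAs. Its average difference was 0.01, with a 95% interval of -0.29 to 0.31, which is wide enough to hold a change as large as that of DNMT3A in either direction. PSIP1, which tethers partner proteins, HIV integrase among them, to transcribed chromatin, was lower by value in 7 of 8 same-numbered pairs. It averaged -0.17 (interval -0.41 to 0.06, adjusted p = 0.662, and adjusted p = 0.12 with the block). GLYR1, a nucleosome-destabilizing factor and cofactor of the demethylase KDM1B, averaged -0.11 (interval -0.24 to 0.02, adjusted p = 0.574). Neither passed the test.

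For the 3 Polycomb-like proteins the average differences were 0.12 for PHF1 (interval -0.04 to 0.29), -0.04 for MTF2 (-0.17 to 0.08) and 0.05 for PHF19 (-0.23 to 0.34). ZMYND11, which binds trimethylated H3K36 on the variant H3.3 and restrains elongation, differed by -0.06 (-0.19 to 0.06). BRPF1, the scaffold of the MOZ and MORF acetyltransferases, differed by -0.04 (-0.21 to 0.13), and MORF4L1, a subunit of NuA4 acetyltransferase and SIN3 deacetylase complexes, by -0.06 (-0.24 to 0.12). None of these passed the test. None of these 6 intervals reaches the -0.25 of DNMT3A, whose own interval was -0.36 to -0.14. The difference between these genes and DNMT3A was not tested.

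**Figure D2:**
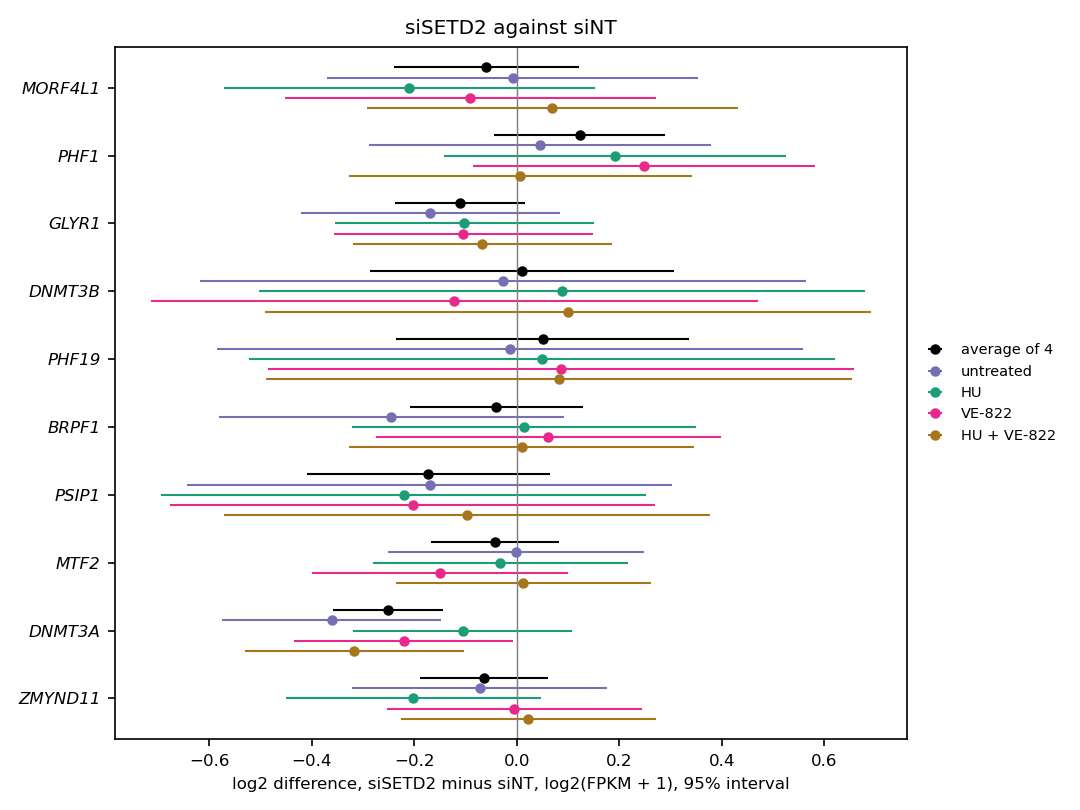
Log2 difference in FPKM + 1, siSETD2 minus siNT (horizontal axis), for each reader gene, as points with 95% limma intervals for the average of 4 treatments (black) and for each treatment (colours). DNMT3A lies left of 0 in each treatment, at -0.36 untreated and -0.10 in HU, and its average interval of -0.36 to -0.14 does not reach 0.

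Within a single treatment the siRNA contrasts had 2 libraries a side. DNMT3A differed by -0.36 in untreated cells (SE 0.10), -0.10 in HU, -0.22 in VE-822 and -0.32 in HU with VE-822, with adjusted p-values of 0.999, 1, 1 and 1. Each of these 4 contrasts called 0 genes by limma, 0% of those tested, and also 0 genes by voom on the recovered fragments, while 578, 337, 384 and 285 genes had an unadjusted p under 0.05. Of the 4 DNMT3A differences, 3 were among those, the exception being HU. SETD2, the siRNA target, was itself not called, at -1.23 untreated, -1.16 in HU, -0.93 in VE-822 and -1.02 in HU with VE-822. The lack of calls in these contrasts therefore does not show a lack of difference. Whether the drug response differed between siRNAs was tested directly for HU, VE-822 and their combination. These 3 contrasts also called 0% of genes by limma and by voom, with 97, 227 and 146 genes at an unadjusted p under 0.05 and 0 readers among them. The lowest unadjusted p of a reader was 0.0892, for DNMT3A in HU.

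The second question was how the readers responded to the drugs. In HU alone no reader passed the test. The contrast averaged over both siRNAs called 14 genes, 0.107% of those tested, and 0 of 10 readers by limma or voom. It had 992 genes but 0 readers at an unadjusted p under 0.05. With so few genes called, this does not show that the readers were unchanged. The difference furthest from 0 was that of DNMT3B, at -0.37 (interval -0.79 to 0.05, adjusted p = 0.734, mean level 73.2% of untreated). It was -0.09 among R1 and -0.65 among R2 libraries, since the untreated R2 libraries held the 2 highest DNMT3B values of the series, 18.2 and 21.0 FPKM. PSIP1 at -0.17, BRPF1 at 0.14, PHF19 at 0.13, GLYR1 at 0.12 and MTF2 at -0.12 had intervals that included 0.

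VE-822 alone was accompanied by a shift in 4 of the 10 readers: PHF19 rose, while MTF2, DNMT3B and ZMYND11 fell. This share has to be read against the contrast as a whole, which called 24.7% of genes tested, 11.4% higher and 13.4% lower. Against it stood 1 reader higher and 3 lower. The share of all genes whose libraries separate fully between drug treatments was not counted for this or the later contrasts. The median difference of the readers was -0.06, beside -0.03 over all genes. The libraries in VE-822 alone also stood apart on the first principal component (29.5 to 35.3). On it R2 and R1 of the other groups differed too (0.86 to 7.23 and -33.3 to -20.5). An effect of the drug cannot be told apart from another property of these 4 libraries.

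PHF19, a PRC2 accessory subunit with a Tudor domain that holds trimethylated H3K36, had 12.2 and 13.3 FPKM in siNT and 13.5 and 13.7 FPKM in siSETD2 cells given VE-822 (R1 and R2). The untreated values were 7.10 and 8.13 FPKM with siNT and 5.78 and 9.71 FPKM with siSETD2. Every VE-822 library lay above every untreated one, and the VE-822 mean was 171% of the untreated mean. The log2 difference was 0.73 (SE 0.18, interval 0.32 to 1.13, adjusted p = 0.017), and it was 0.90 among R1 and 0.55 among R2 libraries. Its level in HU was 7.14 and 9.43 FPKM with siNT and 6.78 and 10.7 FPKM with siSETD2, which overlapped the untreated range.

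MTF2, the paralog of PHF19 with the same role at PRC2, went the other way. It had 6.14 and 5.27 FPKM in siNT and 5.10 and 4.96 FPKM in siSETD2 cells given VE-822. The other 12 libraries spanned 6.19 to 7.76 FPKM, all above those in VE-822, of which the highest was at 6.14. Relative to untreated cells it fell by 0.33 on the log2 scale (SE 0.08, interval -0.51 to -0.16, adjusted p = 0.0133), to 76.5% of the untreated mean. PHF1, the third Polycomb-like protein, ranged from 18.4 to 27.1 FPKM in VE-822 and from 21.4 to 23.6 FPKM untreated, with a difference of 0.03 (interval -0.21 to 0.26). The 3 paralogs thus went 1 up, 1 down and 1 with no difference detected.

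DNMT3B in VE-822 had 9.44 and 9.69 FPKM with siNT and 8.63 and 8.79 FPKM with siSETD2, below the 10.0 to 21.0 FPKM of the other 12 libraries. Against untreated cells it fell by 0.63 (SE 0.19, interval -1.05 to -0.21, adjusted p = 0.0338). The size of this difference depended on which untreated libraries were used: it was -0.26 among R1 and -1.01 among R2 libraries, and -0.38 without untreated siSETD2 R2. DNMT3A, by contrast, differed by 0.00 in VE-822 (interval -0.15 to 0.15). The test of the difference between these 2 genes was not part of the design.

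ZMYND11 was at 1.64 and 1.54 FPKM with siNT and at 1.57 and 1.59 FPKM with siSETD2 in VE-822, and at 1.76 to 2.51 FPKM in the other 12 libraries. It fell by 0.25 (SE 0.08, interval -0.43 to -0.07, adjusted p = 0.0425), to 76.3% of the untreated mean. This call lay close to the threshold and was lost under 3 of the other settings and without any 1 of 11 libraries. The remaining readers, MORF4L1 (-0.11), BRPF1 (-0.08), GLYR1 (-0.05), PHF1, DNMT3A and PSIP1 (0.15), did not pass. With the replicate block the contrast called 44.9% of genes and the same 4 readers, with adjusted p-values of 4.59e-05 for PHF19, 0.00404 for MTF2, 0.00567 for DNMT3B and 0.0113 for ZMYND11. With 1 library left out at a time, PHF19 ran from 0.56 to 0.89, MTF2 from -0.40 to -0.27 and DNMT3B from -0.88 to -0.38. ZMYND11 ran from -0.28 to -0.22. Which readers passed changed with the library left out, as described at the end.

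**Figure D3:**
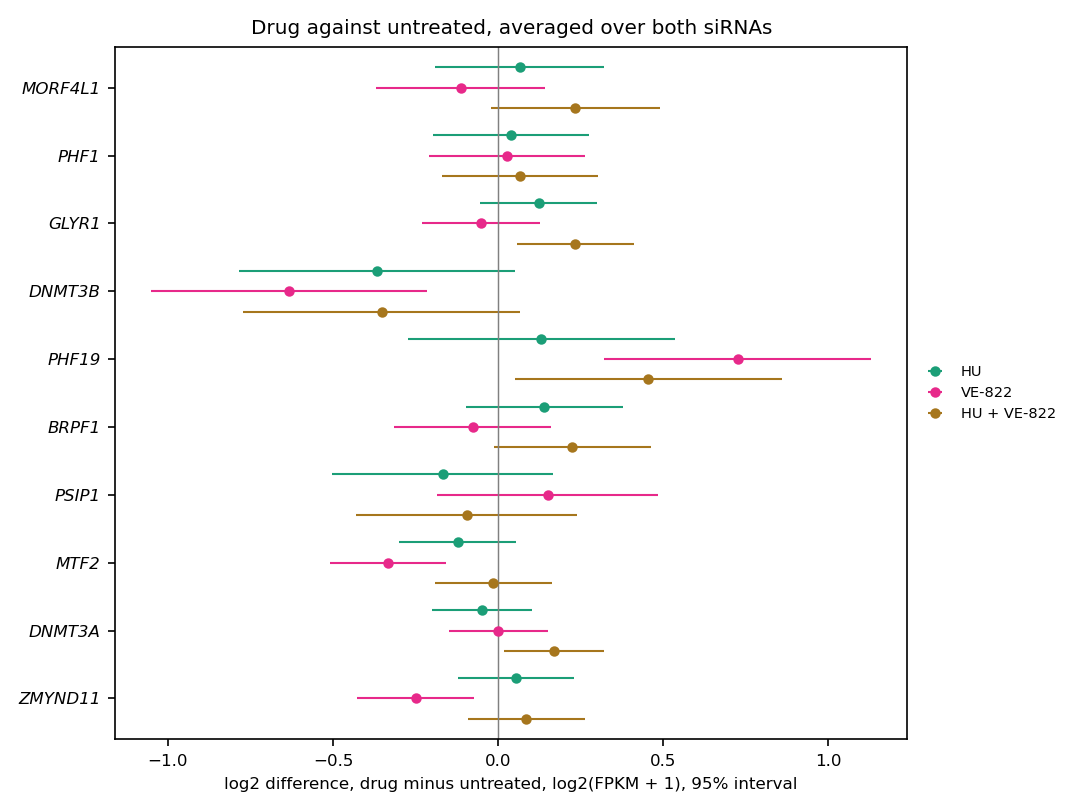
Log2 difference in FPKM + 1, drug minus untreated and averaged over both siRNAs (horizontal axis), for each reader gene in HU (green), VE-822 (pink) and HU + VE-822 (brown), with 95% limma intervals. In VE-822 PHF19 stands at 0.73 and DNMT3B, MTF2 and ZMYND11 at -0.63, -0.33 and -0.25, with intervals that do not include 0.

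Marker genes of cell identity also moved in VE-822. In VE-822 alone, RUNX2, an osteoblast transcription factor, rose by 1.67 and the matrix gene FN1 by 1.49, while VIM fell by 0.59 and the keratin KRT18 fell by 1.03. These were 3 of 5 mesenchymal and 1 of 3 epithelial markers tested, and their part in the readers' results was not tested. Summed over each list, mesenchymal markers were at 282 to 421 FPKM untreated and 293 to 340 FPKM in VE-822, and epithelial markers at 87.1 to 117 and 52.4 to 61.0 FPKM. KRT18 has processed pseudogenes with which it may share reads.

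When HU and VE-822 were combined, no reader passed the test against untreated cells. By value 7 readers were higher and 3 lower, with a median difference of 0.13 beside 0.02 over all genes. This contrast shares its untreated libraries with the 2 above. It called 5 genes, 0.0382% of those tested, and 0 of 10 readers by limma or voom, with 1781 genes and 3 readers (GLYR1, PHF19 and DNMT3A) at an unadjusted p under 0.05. PHF19 had 8.78 and 12.3 FPKM with siNT and 9.43 and 13.0 FPKM with siSETD2, with each R2 value above its R1 value, and a difference of 0.45 (interval 0.05 to 0.86, adjusted p = 0.305). The difference was 0.45 among R1 and 0.46 among R2 libraries. With the replicate block, which takes out that gap, PHF19 passed with an adjusted p of 0.0121, as 1 of 10 readers where 7.3% of genes were called.

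MTF2 in the combined treatment was at 6.60 to 7.27 FPKM, within the untreated range of 6.32 to 7.76, and differed by -0.01 (interval -0.19 to 0.16). ZMYND11 differed by 0.09 (interval -0.09 to 0.26). Neither interval holds the point estimate in VE-822 alone, but the combination was not tested against VE-822 alone and both contrasts share the untreated libraries. DNMT3B differed by -0.35 (interval -0.77 to 0.07), at -0.77 among R2 and 0.06 among R1 libraries. GLYR1 had 20.5 and 22.1 FPKM with siNT and 19.7 and 20.8 FPKM with siSETD2, all above the untreated range of 15.6 to 19.4, with a difference of 0.23 (interval 0.06 to 0.41, adjusted p = 0.239, and adjusted p = 0.0666 with the block). It did not pass the test.

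The effect of adding VE-822 to HU was read from the combined treatment against HU. In this contrast 1 gene, 0.00764% of those tested, was called, and 0 of 10 readers by limma or voom, while 1092 genes and 1 reader had an unadjusted p under 0.05. That reader was DNMT3A, at 0.22 (SE 0.07, interval 0.07 to 0.37, unadjusted p = 0.00907, adjusted p = 0.45). With siNT it was at 3.10 and 3.13 FPKM in HU and at 4.30 and 4.00 FPKM in the combination. With siSETD2 it was at 2.81 and 2.84 FPKM against 3.14 and 3.13 FPKM. The libraries did not overlap within either siRNA, yet the difference did not pass over all genes. PHF19 differed by 0.32 (interval -0.08 to 0.73). By value alone 0 of 10 readers were lower in the combination, beside 46.8% of all genes. Of the 54 tested genes in the related lists described below, 40 were also higher and 14 lower. Among R2 libraries the readers DNMT3B (-0.12) and PHF1 (-0.06) were lower.

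Same-numbered libraries carried a shared difference that some readers followed. PHF19 was higher in R2 than in R1 in 6 of 6 groups (VE-822 alone left aside), by 0.44 ± 0.172 (SD, n = 6 groups), and PSIP1 in 6 of 6, by 0.34 ± 0.125. Within the VE-822-alone groups the R2 minus R1 difference of PSIP1 was -0.30 with siNT and -0.04 with siSETD2. DNMT3B had a mean difference of 0.31 with a wider spread (SD 0.409). DNMT3A had a mean of 0.00, between -0.09 and 0.09 in the 6 groups, and stood at 0.18 in siNT and -0.03 in siSETD2 cells given VE-822 alone. For PSIP1 and PHF19 the mean gap between library numbers was larger in size than the siRNA difference in any treatment.

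**Figure D4:**
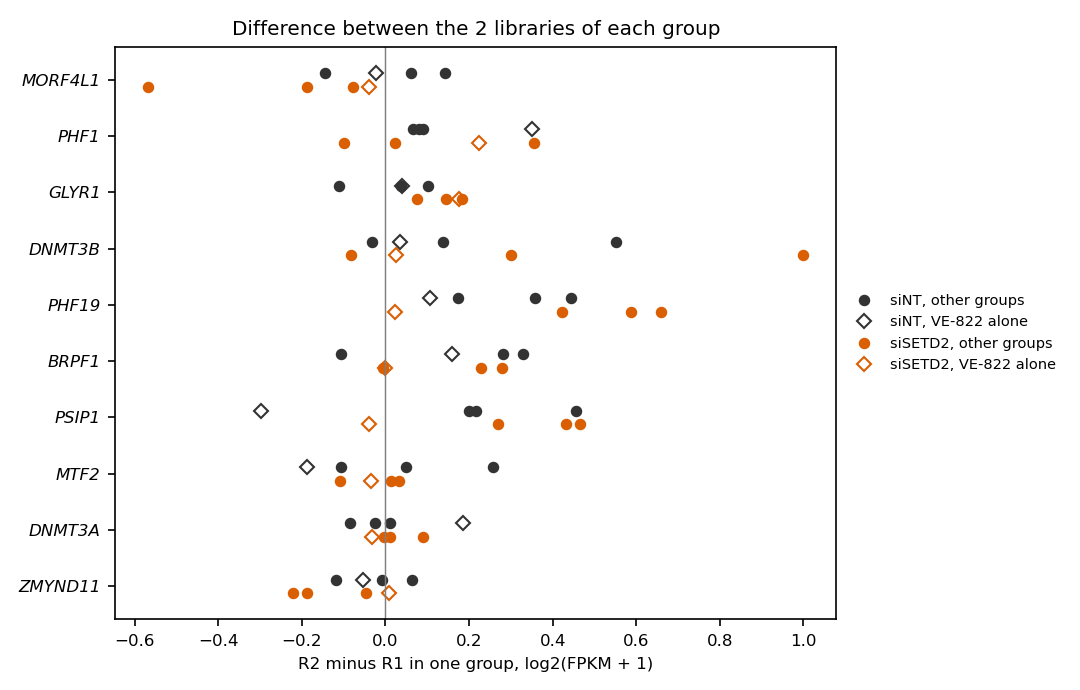
R2 minus R1 in each group on the log2(FPKM + 1) scale (horizontal axis) for each reader gene, with siNT in black and siSETD2 in orange, and open diamonds for VE-822 alone. All 6 filled points of PHF19 and of PSIP1 lie right of 0, and those of DNMT3A lie between -0.09 and 0.09.

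Around the readers, 58 related genes in 8 lists were followed, of which 54 were tested. With siSETD2 on average, 13 were higher and 41 lower, with a median of -0.05 beside -0.01 over all genes, and 1 fell, SETD2 itself. Among the 5 H3K36 methyltransferases all 5 were lower by value and 1 passed. With the replicate block HDAC1, a deacetylase of the SIN3 complex that MORF4L1 joins, fell by 0.21 (adjusted p = 0.0382), to 85.6% of siNT by mean level. HDAC1 has processed pseudogenes with which it may share reads. None of the DNA methylation, PRC2 or MOZ and MORF partners passed in either fit of this contrast.

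In VE-822 alone, 5 of the 54 rose and 7 fell, a share near that of all genes, of which 11.4% rose and 13.4% fell. Of 9 further PWWP proteins tested, 1 rose and 4 fell. BRPF3, the relative of BRPF1 that assembles with the acetyltransferase HBO1, went from 5.27 to 7.33 FPKM untreated to 8.98 to 9.59 FPKM, a rise of 0.46 (SE 0.09, adjusted p = 0.00406). BRPF1 itself did not pass, at -0.08. HDGF, a growth factor with a PWWP domain, fell by 0.61 (SE 0.11, adjusted p = 0.00413), from 68.3 to 96.1 FPKM untreated to 45.5 to 52.5 FPKM. The others that fell were HDGFL2, HDGFL3 and PWWP2B.

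Of 11 partners and relatives of MORF4L1, 2 rose and 2 fell in VE-822: the acetyltransferase KAT5 (0.44, adjusted p = 0.00856) and the scaffold TRRAP rose, and HDAC1 (-0.39, adjusted p = 0.00487) and MORF4L2 fell. The demethylases KDM4A and KDM8 rose, 2 of 6 erasers of H3K36 methylation. Of the 5 genes listed with PSIP1, ZMYND11 and GLYR1 (MEN1, KMT2A, IWS1, KDM1B and EZHIP), 1 fell, the elongation factor IWS1. Of 8 PRC2 partners 0 passed, and with the replicate block 1 did, EZH2, the catalytic subunit, at -0.21 (adjusted p = 0.0196). The block called 44.9% of all genes in this contrast. In HU 0 of 54 passed, and with the block 1 did, where 1.6% of all genes were called: BRPF3, at 0.36 (adjusted p = 0.0202). In HU with VE-822 0 of 54 passed, and with the block 5 did, where 7.3% of all genes were called, among them BRPF3 at 0.48 (adjusted p = 0.00408), PWWP3A at -0.32 (adjusted p = 0.0205) and KDM2A at 0.29 (adjusted p = 0.0224).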

How the data were processed

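RNA-seq of 16 libraries was analysed from one table of FPKM values deposited by the authors. The submitters' processing notes name build hg38 and the tools DESeq2 1.26.0, featureCounts 1.5.0-p3, STAR 2.6.1d and FastQC. Use of strand, annotation and tool parameters were not given in the sources used here. All 58735 identifiers matched GENCODE release 29, from which symbols and positions were taken. FPKM times exon length gave whole fragments (tolerance 0.01) for 100% of values, and 22310806 to 31101932 fragments per library.

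Log2(FPKM + 1) was fitted with limma 3.58.1 (limma-trend, R 4.3.3) with 1 mean per group over all 16 libraries (8 residual degrees of freedom), for the 13088 genes whose mean reached 1 FPKM. The number of contrasts tested was 12, with Benjamini-Hochberg adjustment over all genes tested and a threshold of 0.05. The fit was run on simulated data with changes larger than the siRNA differences of the readers and no shift between R1 and R2. It was not tested on simulated differences as small as theirs. Fold changes are on this log scale and understate changes of low genes.

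The shared numbers R1 and R2 were checked as pairs: the difference between them correlated across genes between groups. Leaving VE-822 alone aside, r was 0.363 to 0.746 for the 15 pairs among 6 groups. It was -0.0517 to 0.295 in 12 pairs with a VE-822-alone group, and 0.395 between both of those. The pairing comes from these data and the shared numbers, and the block in 6 groups is 0 in the 4 VE-822-alone libraries. Other settings were a block over all 8 groups, a pseudocount of 0.1, other filters, rescaling, voom on recovered fragments, and libraries left out. All members are named, and of the related lists the genes that passed, up to 3 with the smallest p per contrast, while others named to complete a count were chosen after their values were seen. The members and lists were chosen with earlier results of these data known. Protein sequences were not used here.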

Additional observations from a re-analysis of the deposited data

How the results depend on the processing

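The number of readers called (main values 0 with siSETD2 on average, 4 in VE-822, 0 in HU with VE-822) changed under these settings. With the replicate block over all 8 groups or in 6 groups, 1 reader was called with siSETD2 on average (DNMT3A, adjusted p = 0.032 and 0.0143) and 1 in HU with VE-822 (PHF19, adjusted p = 0.0498 and 0.0121), and 1 in the latter (PHF19, adjusted p = 0.0349) also without the VE-822-alone libraries and with the block. The block in 6 groups changed no other call of a reader. Without a filter on low values, which raised the genes tested to 40338, 2 readers (MTF2 and PHF19) were called in VE-822, and DNMT3B (adjusted p = 0.075) and ZMYND11 (adjusted p = 0.0617) were not. ZMYND11 also missed the threshold when scaled to library totals (adjusted p = 0.0526) or by median ratios (adjusted p = 0.0599). With 1 library left out at a time, the count ran from 0 to 5 in VE-822, from 0 to 2 in HU with VE-822 (2, DNMT3B and MORF4L1, without untreated siSETD2 R1) and from 0 to 1 with siSETD2 on average (1, DNMT3A, adjusted p = 0.0353, without untreated siSETD2 R2). In VE-822 it was 0 without R2 of either VE-822 group, 1 without siSETD2 R1 in VE-822, and 2 without untreated siNT R1 or R2, siNT R1 in VE-822 or untreated siSETD2 R1. The cause of these changes was not tested. Each fit with 1 library left out kept 1 library in that group, and its share of all genes called is not given here. These counts therefore do not show that the readers were less stable than other genes. No direction reversed in the settings run for the counted contrasts and called readers: over the left-out libraries DNMT3A with siSETD2 ran from -0.27 to -0.23, and in VE-822 PHF19 ran from 0.56 to 0.89, MTF2 from -0.40 to -0.27, DNMT3B from -0.88 to -0.38 and ZMYND11 from -0.28 to -0.22. A minimum mean of 5 FPKM left DNMT3A and ZMYND11 untested. With 208 to 350 fragments per library, ZMYND11 had the least depth of the readers.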
